A study of Mus musculus with 2 samples.

Results

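The S100 genes encode small calcium-binding proteins, and 8 of them were the subject here: S100a1, S100a4, S100a6, S100a8, S100a9, S100a10, S100a11 and S100a13. Members were all probe sets that the array's annotation assigns to a single one of these genes. That rule found 10 probe sets of 7 genes, among 34945 single-gene probe sets of 18193 genes on the array. S100a11 had no probe set of its own, because the 1 probe set naming it also names other loci, 3 in all, so no value is given for it. The family was selected on the signals of these arrays, because it was lower in the knockout one, so the differences between the arrays below are descriptions of values already used for that choice.

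Expression was measured in precancerous liver of mice with 1 Affymetrix array per genotype. The Pik3caTg;Kdm3aKO array holds RNA of liver that carries a hepatocyte-specific Pik3ca transgene and lacks Kdm3a, a gene for a histone H3 lysine 9 demethylase. The Pik3caTg;Kdm3aWT array holds RNA of liver with the same transgene and wild-type Kdm3a. The transgene for the catalytic subunit of phosphoinositide 3-kinase is thus shared by both, and no array of liver without it was analysed here. The labels state regular chow, a cycle of 12 h light and dark, and name no further treatment. The promoter that drives the transgene, the kind of Kdm3a allele, the strain, age and sex, and whether RNA of several animals was pooled are not stated in the labels. With 1 array per group no test was possible, no difference has an error between animals, and the number of arrays limits the precision.

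S100 proteins work mostly as dimers that change shape when calcium binds to their EF-hands, a helix-loop-helix fold, and then attach to target proteins. Inside cells they act on annexins, the actomyosin cytoskeleton and calcium pumps, and several are released and bind receptors such as RAGE (encoded by Ager) and TLR4. In liver, S100a8 and S100a9 are known from neutrophils and monocytes, S100a4 from fibroblasts and macrophages, and S100a6, S100a10 and S100a11 from bile duct cells, fibroblasts and transformed epithelium. Because whole liver was measured, fewer cells of a type and less RNA per cell cannot be told apart in any value below.

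Kdm3a had a signal of 61.6 in the knockout array and 719.9 in the wild-type array, an 11.7-fold difference by its single probe set, whose place relative to the deleted part is not known here. Signals are MAS5 values, a linear intensity summarised over the probes of a probe set and scaled to a common level on both arrays. All 13 hepatocyte markers with a value were far above the signal floor, at 16613 or more in the knockout array and 8511 or more in the wild-type array. Signals under a floor of 46.6 were set to that floor, and a fold with 1 such signal is a bound, written "at least". Genes were compared where a probe set's mean signal over both arrays reached 73.7, and a gene took its brightest such probe set. Ratios are given as log2 of the knockout signal divided by the wild-type signal. Kdm3a reached the limit of 73.7 only through its wild-type signal. Its log2 ratio was -3.55, or -2.49 with a floor set at percentile 60 of all values. Log2 ratios of probe sets of the same gene spread around their gene's mean with an SD of 0.446, pooled over 4958 genes, bounds included. This SD also holds differences between the transcripts that probe sets read, and it holds no spread between animals.

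Of the 7 S100 genes with a value, 5 had a signal lower by 2-fold or more in the knockout array, and the number higher by 2-fold or more was 0. S100a6 stood lowest, followed by S100a9, S100a8, S100a10 and S100a4, while S100a1 and S100a13 lay within 2-fold. Over all 11693 genes compared, 8.96% were at least 2-fold lower and 3.83% at least 2-fold higher. Lower genes made up 70.1% of these calls, against 52.0% after scaling to the poly-A control probe sets and 80.6% after scaling to the hybridisation control probe sets. Under both, 5 S100 genes were lower and 0 higher. The control signals differed between arrays by a log2 ratio of -0.19 (poly-A) and 0.13 (hybridisation). Shifts of that size could not move any S100 gene across 2-fold, so nothing is read from the unchanged count. The median log2 ratio of the S100 genes was -1.48, beside -0.02 over all genes. The choice of the family used these ratios, so nothing is read from the distance. Counted by probe set without the filter, 6 of the 10 S100 probe sets were at least 2-fold lower and 4 lay within 2-fold. Of all 34945 single-gene probe sets, 5.21% were at least 2-fold lower and 3.1% at least 2-fold higher.

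**Figure D1:**
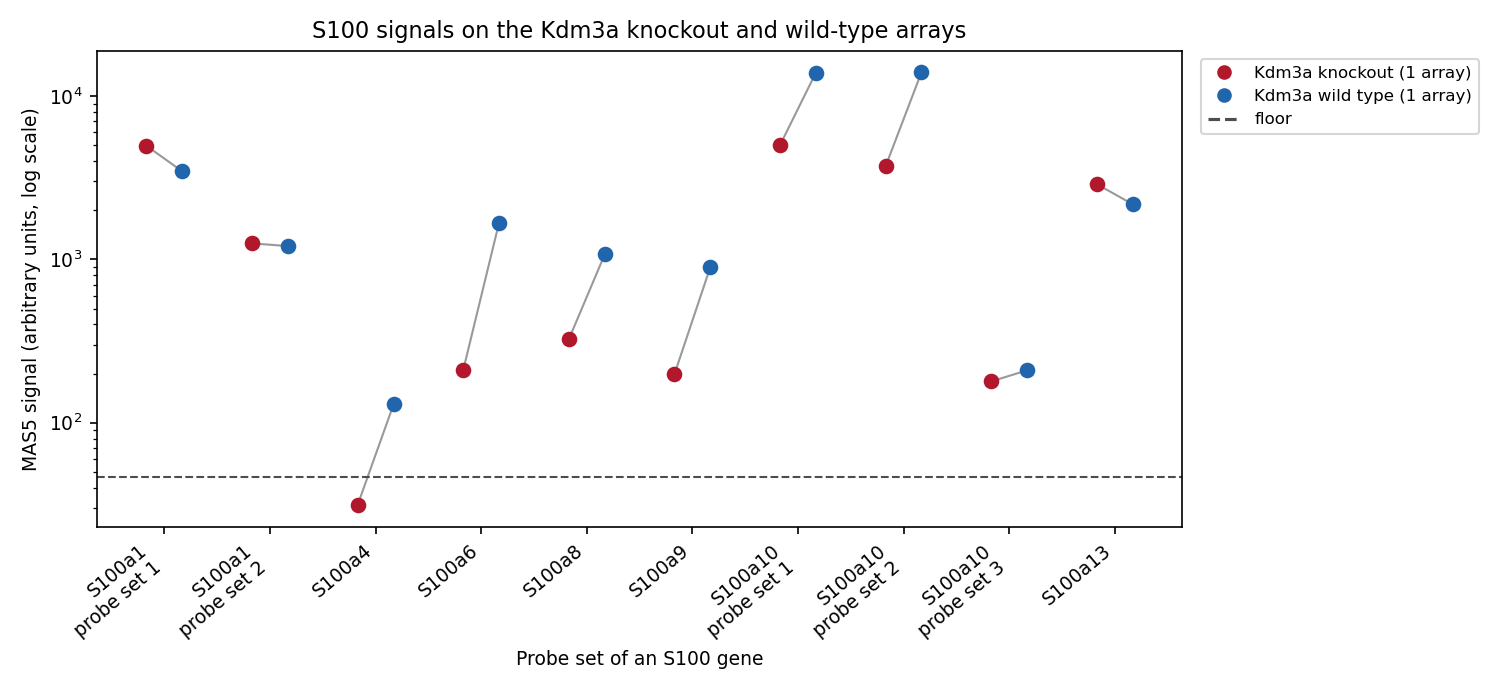
MAS5 signal (log axis) of each of the 10 S100 probe sets, with the knockout array in red on the left and the wild-type array in blue on the right of each pair, 1 array each, and the floor of 46.6 as a dashed line. Knockout points lie well below wild-type points for S100a4, S100a6, S100a8, S100a9 and the first and second S100a10 probe sets, and above them for S100a1 and S100a13.

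S100a8 and S100a9 encode the subunits of calprotectin, a heterodimer that neutrophils and monocytes hold in their cytosol and release at sites of inflammation. S100a8 had a signal of 323.9 in the knockout array and 1071 in the wild-type array, a log2 ratio of -1.73 or 3.31-fold lower. S100a9 had a signal of 197.7 in the knockout array and 894.9 in the wild-type array, a log2 ratio of -2.18 or 4.53-fold lower. Both subunits were thus lower in the knockout array, and their log2 ratios differed from each other by 0.45. The SD of 0.446 given above is a spread around a gene's mean, and a difference between probe sets spreads wider than that. The S100a8 probe set carries the name ending that the manufacturer gives to probes shared by several transcripts, so its signal may include related RNA.

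Other neutrophil markers went both ways, beside 8.96% of all genes at least 2-fold lower and 3.83% at least 2-fold higher. Of 15 listed, S100 genes left out, 6 had a value, of which 1 was lower and 1 higher, with a median log2 ratio of -0.14 that turned to 0.05 after scaling to the poly-A control probe sets. The lower one was Lcn2, the iron-carrier-binding protein that injured hepatocytes also secrete, at 2050 in the knockout array and 26441 in the wild-type array. The higher one was the gelatinase Mmp9, at 132.4 in the knockout array and 52.7 in the wild-type array. Mmp9 passed the filter only through its knockout signal. Il1r2 (-0.98), a decoy receptor for interleukin-1, and Csf3r (0.52), the receptor of the granulocyte growth factor, lay within 2-fold. The count of lower ones was 3 of 7 after median centring, loess or scaling to the hybridisation control probe sets. The signals of the 12 markers with a probe set summed to 3005 in the knockout array and 27545 in the wild-type array. Without Lcn2, the other 11 summed to 955.5 in the knockout array and 1104 in the wild-type array, and Cxcr2, a chemokine receptor of neutrophils, was below the floor on both. The part of neutrophil number in the S100a8 and S100a9 values was not tested.

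S100a6, or calcyclin, is made by fibroblasts, epithelial cells and proliferating cells and binds annexins and the ubiquitin ligase adaptor CACYBP. It had a signal of 210.1 in the knockout array and 1682 in the wild-type array, a log2 ratio of -3.00. The knockout signal was 12.5% of the wild-type one, and the gene ranked 41 from the lowest among the 11693 genes. Its single probe set has the name ending for transcripts of the same gene, and no second probe set repeats the value.

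S100a4, also called fibroblast-specific protein, binds non-muscle myosin and is known from motile fibroblasts and macrophages. Its signal was 31.4 in the knockout array, below the floor, and 129.3 in the wild-type array, so it was at least 2.78-fold lower. The gene passed the filter only through its wild-type signal, with a mean of 80.3 just above the limit of 73.7. A value of this kind depends on the floor. The log2 ratio was -2.04 without a floor and -0.01 with a floor set at percentile 60 of all values, where S100a4 no longer counted as lower.

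S100a10, or p11, differs from its relatives in having lost calcium binding, and it joins annexin A2 in a complex at the plasma membrane that also binds plasminogen activator. Its brightest probe set read 4996 in the knockout array and 13905 in the wild-type array, a log2 ratio of -1.48. The second read 3709 in the knockout array and 13962 in the wild-type array, a log2 ratio of -1.91. Its name ends in _x_at, an ending called cross-matching below. The third read 178.9 in the knockout array and 209.2 in the wild-type array, a log2 ratio of -0.23. The first and second probe sets were therefore 2.78-fold and 3.76-fold lower, and the third was 1.17-fold lower, so the gene's probe sets shared a direction but not a size.

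S100a1 and S100a13 were the members that were not lower. S100a1 is best known as a regulator of calcium release and of the calcium pump SERCA in muscle. Its brighter probe set read 4957 in the knockout array and 3453 in the wild-type array, a log2 ratio of 0.52, but that probe set has the ending for shared transcripts. The other read 1253 in the knockout array and 1206 in the wild-type array, a log2 ratio of 0.06. S100a13, which helps to export fibroblast growth factor 1 and interleukin-1 alpha, proteins without a signal peptide, read 2892 in the knockout array and 2176 in the wild-type array. Its log2 ratio was 0.41, or 1.33-fold higher. Except for the brighter S100a1 probe set, these ratios were smaller than the SD of 0.446 between probe sets of 1 gene.

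**Figure D2:**
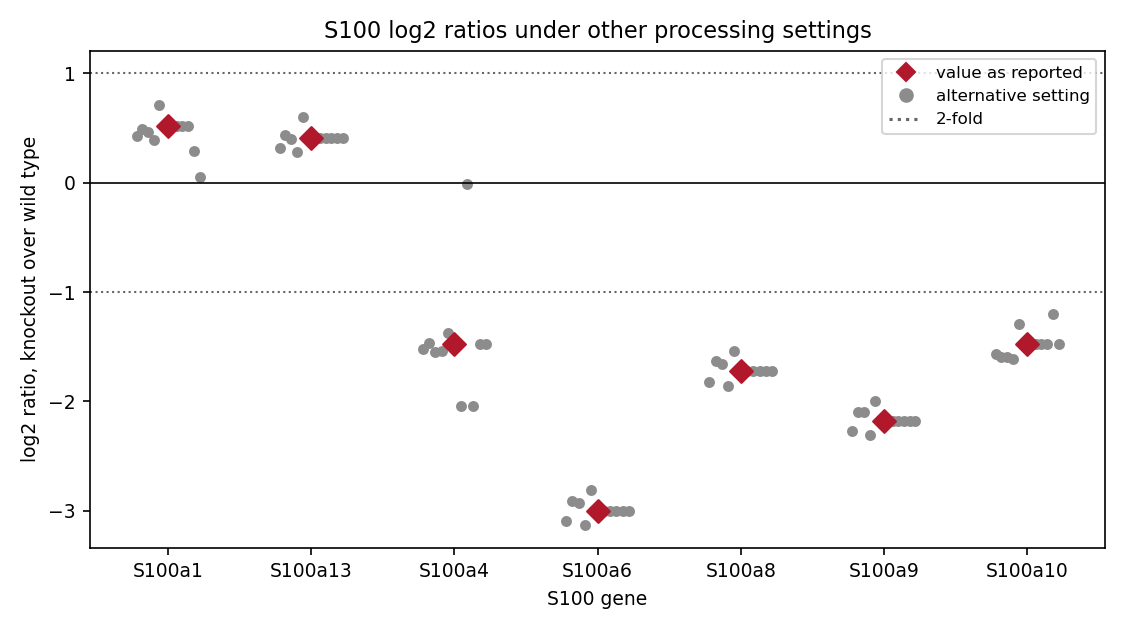
Log2 of knockout over wild-type signal for the 7 measured S100 genes, with the value as reported as a red diamond and each alternative processing setting as a grey point. S100a6, S100a8, S100a9 and S100a10 lie below the dotted 2-fold line at every setting drawn, S100a4 spans -2.04 to -0.01, and S100a1 and S100a13 stay between 0 and 1.

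Outside the members, 7 further S100 genes had single-gene probe sets, 9 in all, and 1 of them passed the filter. This was S100a16, a widely expressed member, with log2 ratios of -0.43 and -0.13 by its probe sets. The brighter of them read 1476 in the knockout array and 1983 in the wild-type array. S100b, known from glia and nerve sheath cells, read 12.4 in the knockout array and 58.8 in the wild-type array by its brighter probe set, at least 1.26-fold lower, and failed the filter. The other 5, S100a3, S100a5, S100a14, S100a7l2 and the vitamin D-regulated S100g, were below the floor on both arrays with every probe set, so no ratio is given for them. No value was obtained here for S100a2, S100a7a and S100z.

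All 8 members lie on mouse chromosome 3 in the gene table of RefSeq (GRCm38.p6), which served for gene order alone. Between the outermost members, S100a1 and S100a10, the table places 15 S100 genes, members included, and 86 other genes, 55 of them protein-coding, among them the skin barrier genes of the epidermal differentiation complex. S100a1, S100a13 and S100a16, within 2-fold, lie at one end. S100a4, S100a6, S100a8 and S100a9, all at least 2-fold lower, follow in that order, with S100 genes that gave no ratio among them. S100a11 and S100a10 lie at the far end beyond the skin genes. Of the 86 other genes, 7 had a value, with a median log2 ratio of 0.11. Sprr1a, a cornified envelope precursor that injured cells of other tissues also express, read 102.7 in the knockout array and 877.2 in the wild-type array, 8.54-fold lower. Lce1b was at least 4.09-fold lower and Lce3b was 3.17-fold higher, while Lor, Lce1h, Lce1i and Lce3f lay within 2-fold. Lce1b passed the filter only through its wild-type signal, so its ratio could only be negative. The Lce genes have near-identical copies that the same probes could read, so their values are uncertain.

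**Figure D3:**
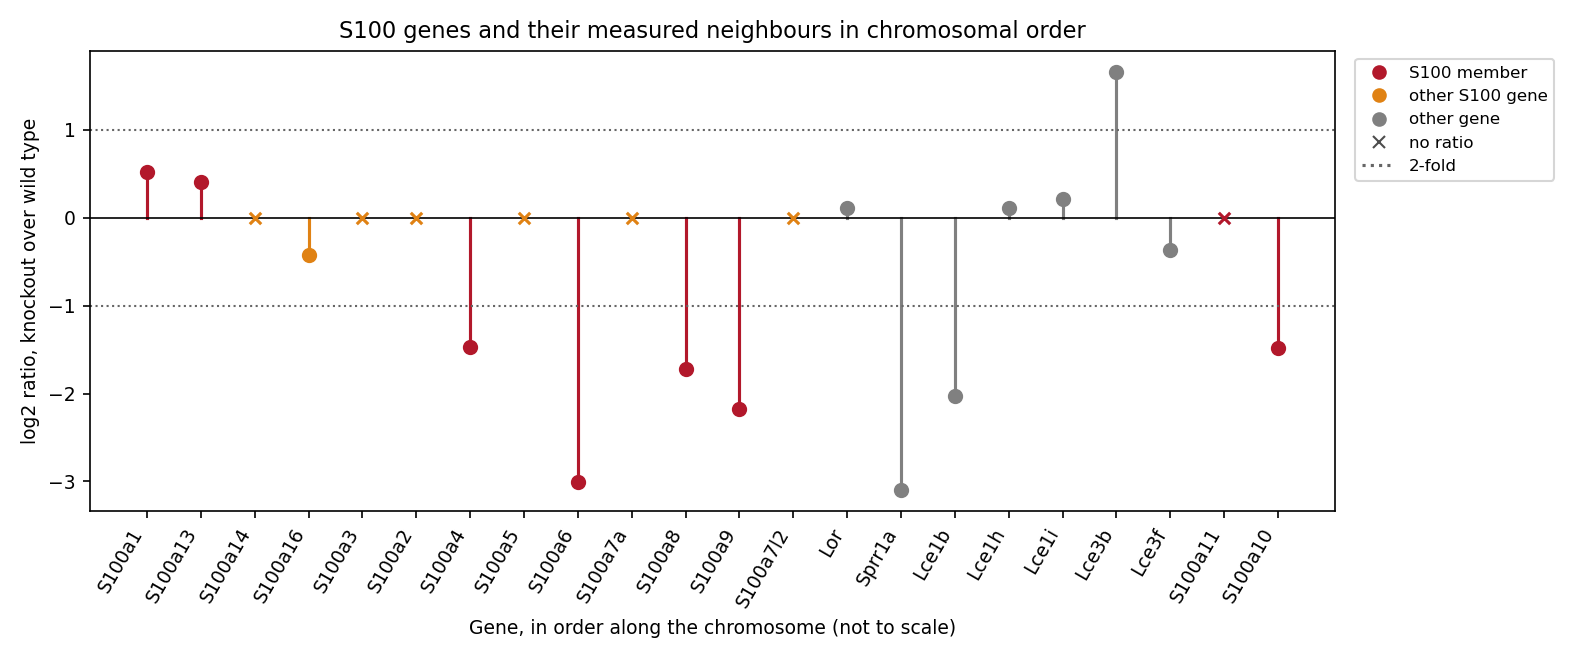
Log2 of knockout over wild-type signal for S100 genes and the measured genes among them, in chromosomal order and not to scale, with members in red, S100a16 and other S100 genes in orange, other genes in grey and crosses for genes with no ratio. S100a4, S100a6, S100a8 and S100a9 point downward as a run of measured genes, while S100a1, S100a13 and S100a16 before them stay between the dotted 2-fold lines.

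Promoter windows from RefSeq, GRCm38.p6, running from 250 bases before to 50 after the annotated start, were found for 7 members. S100a10 is named only. The windows of the lower genes S100a8 (chr3:90668821-90669120 on the plus strand), S100a9 (chr3:90695672-90695971 on the minus strand), S100a4 (chr3:90603520-90603819 on the plus strand) and S100a6 (chr3:90612644-90612943 on the plus strand) are printed to show how members with lower signals compare in sequence. S100a1 (chr3:90514281-90514580 on the minus strand) is printed as a member that was not lower. Each reads 5′ to 3′ along its gene, and capitals mark matches to the motifs searched on both strands.
S100a8: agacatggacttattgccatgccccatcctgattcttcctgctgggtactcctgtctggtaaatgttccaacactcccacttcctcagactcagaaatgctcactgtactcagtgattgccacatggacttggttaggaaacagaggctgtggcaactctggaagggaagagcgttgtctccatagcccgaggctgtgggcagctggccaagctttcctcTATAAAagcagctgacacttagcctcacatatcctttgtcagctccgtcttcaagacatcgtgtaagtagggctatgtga
S100a9: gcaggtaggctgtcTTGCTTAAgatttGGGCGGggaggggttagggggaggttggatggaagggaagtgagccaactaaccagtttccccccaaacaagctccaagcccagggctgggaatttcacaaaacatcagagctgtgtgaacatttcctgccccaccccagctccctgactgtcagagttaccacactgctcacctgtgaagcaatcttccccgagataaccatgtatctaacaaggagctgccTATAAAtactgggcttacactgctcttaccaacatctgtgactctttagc
S100a4: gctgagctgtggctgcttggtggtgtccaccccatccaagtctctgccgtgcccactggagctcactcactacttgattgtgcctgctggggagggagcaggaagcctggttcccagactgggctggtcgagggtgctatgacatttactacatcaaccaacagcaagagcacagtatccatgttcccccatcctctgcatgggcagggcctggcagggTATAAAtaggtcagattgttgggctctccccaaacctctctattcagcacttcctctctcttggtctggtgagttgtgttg
S100a6: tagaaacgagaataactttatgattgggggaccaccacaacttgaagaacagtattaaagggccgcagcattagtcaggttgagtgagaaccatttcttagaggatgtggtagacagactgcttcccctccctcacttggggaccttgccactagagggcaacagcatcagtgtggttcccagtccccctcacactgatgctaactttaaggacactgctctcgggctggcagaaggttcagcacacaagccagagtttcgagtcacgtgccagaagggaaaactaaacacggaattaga
S100a1: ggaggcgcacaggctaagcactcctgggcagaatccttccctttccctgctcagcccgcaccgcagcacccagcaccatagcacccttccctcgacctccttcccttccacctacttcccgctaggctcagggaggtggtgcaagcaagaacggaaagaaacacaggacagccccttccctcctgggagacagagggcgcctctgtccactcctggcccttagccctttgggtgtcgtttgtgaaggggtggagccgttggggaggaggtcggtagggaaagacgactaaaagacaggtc
The motifs were TGANTCA of AP-1, TTGCNNAA of C/EBP, GGGCGG of GC boxes and TATAAA of TATA boxes, and no marked matches overlap one another. TATAAA was found in 3 of the 7 windows, against 13.6% of 32851 windows of this length. It begins 30 bases before the start in S100a8, 31 bases before it in S100a4 and at the annotated start base itself in S100a9. The S100a9 window also holds a C/EBP match (10.8% of all windows) and a GC box (35.7%), while the S100a6, S100a1 and S100a13 windows hold no match to the motifs searched. The AP-1 letters (7.81%) were found in 1 window, that of S100a11, at 136 and 38 bases before the start, together with GC boxes. The S100a1 and S100a13 genes start close together on opposite strands, and their windows share 204 bases read on opposite strands. A match describes letters in a window and no binding was measured.

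Genes for receptors of released S100 proteins were lower in part, beside 8.96% of all genes at least 2-fold lower and 3.83% higher. Of 9 listed, 8 had a value, 3 were at least 2-fold lower and 0 higher, and the median log2 ratio was -0.87, beside -0.02 over all genes. After scaling to the poly-A control probe sets the count of lower ones was 1. Cd14, a co-receptor of TLR4, read 253.6 in the knockout array and 1196 in the wild-type array, 4.72-fold lower. Bsg, the glycoprotein basigin that binds S100A9 in human cells, was 2.26-fold lower, and the scavenger receptor Cd36 was 2.17-fold lower by its brightest probe set and up to 2.78-fold by the others. Tlr4 itself had log2 ratios of -0.87 and -1.50 by its kept probe sets. Nptn (-0.32), neuroplastin, and Mcam (-0.21), an adhesion molecule of vessel walls, stood nearest to 0, though the probe sets of Nptn went both ways, from -0.32 to 0.49. Ager, the gene of RAGE, failed the filter with 68.2 in the knockout array and 52.2 in the wild-type array.

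Intracellular partners of S100 proteins went both ways. Of 17 listed, 15 had a value, 6 were lower by 2-fold or more, 1 was higher by that much and 8 were inside these limits, while 2 were higher after quantile normalization, loess or scaling to the poly-A control probe sets. Their median was -0.53. Of all genes, 8.96% were at least 2-fold lower and 3.83% at least 2-fold higher. Anxa2, the annexin that holds S100a10 at the membrane, read 687.3 in the knockout array and 6427 in the wild-type array, 9.35-fold lower, and its second kept probe set was 3.41-fold lower. The names of these Anxa2 probe sets end in _a_at and _x_at, so without cross-matching probe sets Anxa2 has no value. Both parts of the annexin A2 and S100a10 complex thus had lower signals, as had Plat, the tissue plasminogen activator it binds, at 68.6 in the knockout array and 551.3 in the wild-type array. Plat encodes a secreted protein, so it is counted in this list although it is not an intracellular partner. It passed the filter only through its wild-type signal. Ahnak, a giant scaffold protein bound by the same complex, had log2 ratios from -1.73 to 0.23 by its 3 kept probe sets. Anxa1, the partner of S100a11, read 514.3 in the knockout array and 1820 in the wild-type array, 3.54-fold lower. Of the other genes listed, Anxa6 (-0.32) and Dlc1 (0.45) lay within 2-fold by their brightest probe sets, on either side of 0.

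The remaining partners named had no common direction either. Myh9, the non-muscle myosin heavy chain that S100a4 binds, was 2.01-fold lower by its brightest probe set, and its 3 other kept probe sets lay within 2-fold, from -0.97 to -0.65. The S100a6-binding adaptors Cacybp (-0.11) and Sugt1 (0.16) lay near 0, beside a log2 ratio of -3.00 for S100a6 itself. Fgf1, the growth factor exported with S100a13, read 3681 in the knockout array and 1628 in the wild-type array, 2.26-fold higher, with log2 ratios of its kept probe sets from 0.81 to at least 1.61. Syt1, the synaptotagmin of the same export complex, had a log2 ratio of 0.96. Il1a, the gene of interleukin-1 alpha, read 89.5 in the knockout array and 129.5 in the wild-type array, a log2 ratio of -0.53. The ratios of Fgf1 and Syt1 thus had the sign of that of S100a13, and the ratio of Il1a had the opposite one. Atp2a2, the liver calcium pump of the SERCA family that S100a1 regulates in heart, had a log2 ratio of 0.13.

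Genes for other EF-hand proteins had 5 members lower by 2-fold or more, beside 8.96% of all genes. Of 37 listed, 29 had a value, and 0 were higher by that much. Their median log2 ratio was -0.54. A negative ratio was found for 26 of the 29, beside 6101 of the 11693 genes compared, or 52.2%. Under the other scalings the count ran from 22 after scaling to the poly-A control probe sets, where 37.1% of all genes had a negative ratio, to 28 after scaling to the hybridisation control probe sets, where 63.8% had. Calml4, a calmodulin-like light chain of brush borders, read 103.4 in the knockout array and 1149 in the wild-type array, 11.1-fold lower. Nucb2, the nesfatin precursor, was 4.79-fold lower. The other lower ones were the matrix protein Sparc (3.62-fold by its brightest probe set), the smooth muscle light chain Myl9 (at least 3.29-fold) and the macrophage protein Aif1 (2.27-fold). Myl9 passed the filter only through its wild-type signal. The kept probe sets of Sparc went both ways, with log2 ratios of -1.85, -1.72 and 0.62. Pdcd6 (0.33) and Cetn3 (0.10) had the highest ratios.

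**Figure D4:**
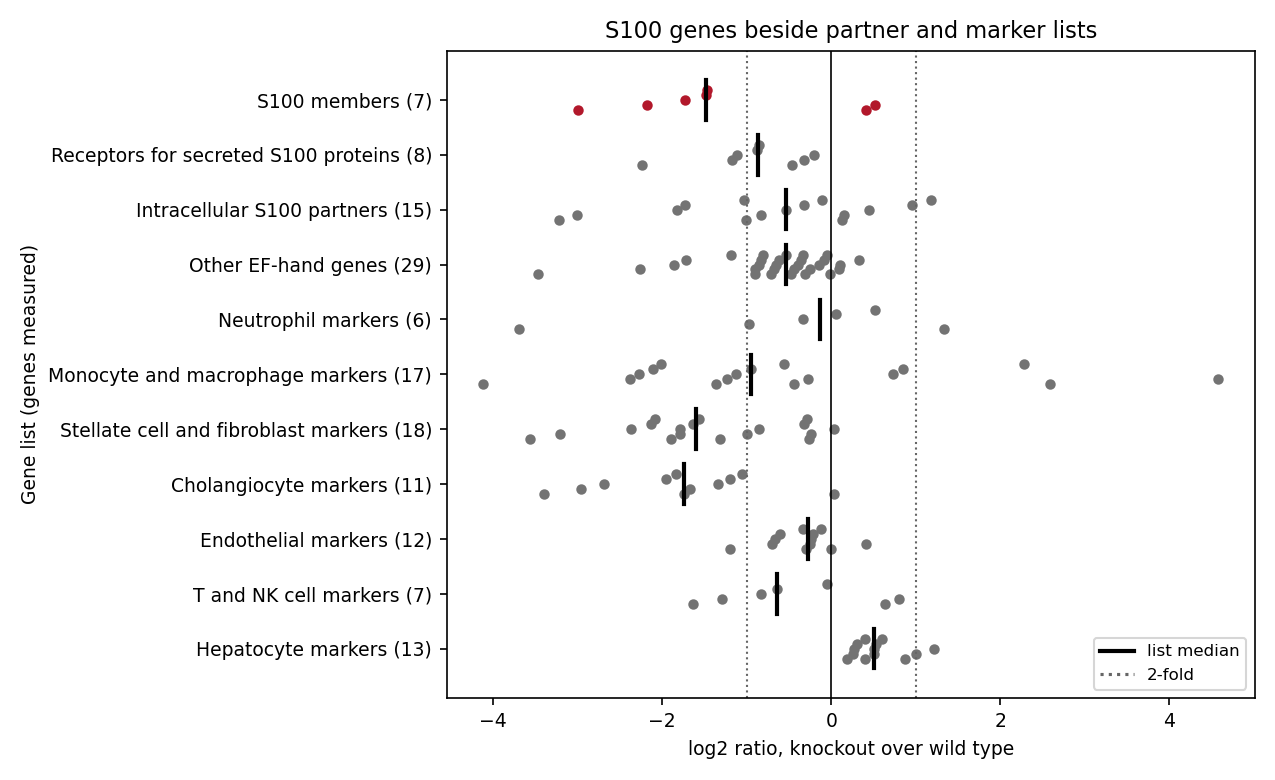
Log2 of knockout over wild-type signal for every measured gene of each list, with the list median as a black bar, the 2-fold limits as dotted lines and the number of genes measured in brackets. The S100 median is drawn at -1.48, that of the stellate cell and fibroblast list at -1.60 (-0.99 with a floor at percentile 60) and that of the cholangiocyte list at -1.75 (-0.93 with that higher floor), and the 13 hepatocyte markers drawn lie above 0 (11 after quantile normalization and 10 after loess).

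Markers of cholangiocytes and of stellate cells and fibroblasts were mostly lower in the knockout array, while those of monocytes and macrophages went both ways. Over all genes compared, 8.96% were at least 2-fold lower and 3.83% at least 2-fold higher. Of 15 cholangiocyte markers, 11 had a value. The count of lower ones was 10 and of higher ones 0, and the median log2 ratio was -1.75. Krt7 (72.4), Krt19 (63.4), Sox9 (73.1) and Cldn7 (72.3) had knockout signals under the filter limit of 73.7. They passed only through their wild-type signals, so their ratios could only be negative. A floor raised to percentile 60 left 5 of the 11 lower and a median of -0.93. The median of -1.75 is the ratio of Epcam, whose second kept probe set had -0.08. With the mean of a gene's kept probe sets the list median was -1.34. Lowest were Cd24a (-3.40), an anchored surface protein, and Tspan8 (-2.96), a tetraspanin, and highest were Sox9 (-1.06), a transcription factor of ducts, and Krt23 (0.04), a keratin, but the probe sets of Tspan8 went both ways. The signals of the 12 markers with a probe set summed to 1637 in the knockout array and 8864 in the wild-type array, and none was below the floor on both. The largest wild-type signals in that sum were those of Cd24a (3472), Mmp7 (1828) and Tspan8 (1305). All 18 markers of stellate cells and fibroblasts had a value, 11 of them lower by 2-fold or more and 0 higher. Their median was -1.60, or -0.99 with that higher floor, and their signals summed to 24139 in the knockout array and 51198 in the wild-type array. The fibrillar collagens Col3a1 (-3.56) and Col1a2 (-3.21) were lowest, and Pdgfra (-0.24) and Reln (0.03) highest. Among the lower ones, Des, Thy1 and Loxl1 passed the filter only through their wild-type signals. Of 19 monocyte and macrophage markers, 17 had a value, 8 were lower and 3 higher, with a median of -0.95. Their signals summed to 38316 in the knockout array and 55834 in the wild-type array, and Gpnmb (-4.12) and Trem2 (-2.38) were lowest. The highest were the scavenger receptors of resident macrophages, Cd163 with a log2 ratio of at least 4.58 and Marco with at least 2.58. The other higher one was Timd4, with a log2 ratio of at least 2.28. Cd163, Marco and Timd4 all had wild-type signals under the floor and passed the filter only through their knockout signals. Among the lower ones, Ccr2 passed it only through its wild-type signal.

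Endothelial, lymphoid and hepatocyte marker lists had medians nearer to 0. The shares over all genes were 8.96% lower and 3.83% higher by 2-fold or more. Of 12 endothelial markers, 1 was lower, Vwf (-1.20), and 0 were higher, with a median of -0.28. Emcn (-0.70) was next lowest, Clec4g (0.41) was highest, and Pecam1 read 241.9 in the knockout array and 242.6 in the wild-type array. Their signals summed to 9044 in the knockout array and 10098 in the wild-type array. Of 10 T and NK cell markers, 7 had a value and 2 were lower, Klrd1 (-1.63) and Nkg7 (-1.29), with a median of -0.64. Nkg7 passed the filter only through its wild-type signal. A floor raised to percentile 60 left 5 with a value, 0 of them lower, and a median of -0.15. Gzma (0.80) and Cd8a (0.64) were highest, though the probe sets of Cd8a ranged from -1.33 to 0.64. Their signals summed to 914.9 in the knockout array and 1150.4 in the wild-type array, and Cd4 and Il2rb were below the floor on both. Of 14 hepatocyte markers, the 13 measured all had a positive ratio, or 11 after quantile normalization and 10 after loess, from 0.18 for Ahsg and 0.26 for Cyp2e1 to 1.22 for Tat, with a median of 0.50. Tat and Hpd, enzymes of tyrosine breakdown, were the 2 that passed 2-fold. Hpd read 50886 in the knockout array and 25381 in the wild-type array, 2.005-fold higher, and the count was 1 after median centring, quantile normalization, loess or scaling to the hybridisation control probe sets. Their signals summed to 585790 in the knockout array and 420931 in the wild-type array. The part of these cell types in the S100 values was not tested.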

How the data were processed

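Total RNA of mouse liver was extracted and 250 ng was turned into biotin-labelled cRNA, per the labels' protocols. The deposited values are linear intensity values, and the submitters' processing notes name MAS5. No source used here gives its settings, detection calls or a genome build. With 2% trimmed at either end, both arrays averaged 500.004, so they had been scaled alike. Groups came from the genotype labels.

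Of 45101 probe sets, 64 were controls, 34945 had 1 gene, 932 had several genes and 9160 had no gene in the platform annotation. Identifiers of 34741 single-gene probe sets were found in RefSeq (GRCm38.p6) for current names. The floor was the 40th percentile of all values pooled, and the filter the 50th percentile of mean signal, which left 19800 probe sets of 11693 genes. Python 3.11.15, pandas 2.3.3 and statsmodels 0.14.6 were used, and the calculation was tested on simulated data. The design (1 array per group) allowed no test.

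Members and lists were chosen with earlier results of these data known, and the lists come from general knowledge. Named were all S100 genes, Kdm3a, Anxa1, Anxa2 and the 2 highest and 2 lowest genes of each list. Named after their values were seen were Cd36, Tlr4, Ager, Ahnak, Myh9, Cacybp, Sugt1, Il1a, Atp2a2, Sparc, Myl9, Aif1, Cxcr2, Cd4, Il2rb, the chromosome 3 neighbours, and the sum without Lcn2. So were Krt7, Krt19, Cldn7, Epcam, Mmp7, Des, Thy1, Loxl1, Ccr2, Timd4, Anxa6 and Dlc1. Alternatives were 5 scalings of the arrays, other filters, floors and size rules, the mean of a gene's probe sets, and leaving out probe sets ending in _s_at, _x_at, _a_at or _f_at, called cross-matching here.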

Additional observations from a re-analysis of the deposited data

How the results depend on the processing

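The count of S100 genes at least 2-fold lower stayed at 4 or 5 of those measured under 12 of 14 alternatives. It was 3 of 5 without cross-matching probe sets, which removes S100a6 and S100a8, and 3 of 7 at a size rule of 3-fold, where 3.49% of all genes were lower. The number of lower S100 probe sets ran from 4 to 6 over 10 alternatives, and the S100 median log2 ratio from -1.73 to -1.38 over 12. No S100 gene that was at least 2-fold lower turned higher under any of these alternatives. Nothing is read from this or from the steady count, because most of the alternatives could not reverse such ratios. A floor or a size rule cannot change the sign of a ratio, and the scalings moved ratios little. The family was also chosen on these ratios. S100a4 was the member that fell within 2-fold, at -0.01 with the floor at the 60th percentile, and it was not measured with the filter at the 70th. Scaling on the hybridisation controls moved the median of all genes from -0.02 to -0.16, and scaling on the poly-A controls moved it to 0.17. S100a1 stood at 0.06 without cross-matching probe sets and at 0.71 with scaling on the poly-A controls. Of the lower list counts, the receptors ran from 1 to 5, the intracellular partners from 3 to 7, the other EF-hand genes from 4 to 14, cholangiocyte markers from 5 to 10, stellate cell and fibroblast markers from 6 to 13, neutrophil markers from 0 to 3, monocyte and macrophage markers from 5 to 9, endothelial markers from 0 to 4, and T and NK cell markers from 0 to 4. The count of higher hepatocyte markers ran from 0 to 4. A size rule of 1.5-fold, where 17.4% of all genes were lower, gave the upper end for receptors, intracellular partners and other EF-hand genes. It also gave that of stellate cell and fibroblast, endothelial, T and NK cell, and higher hepatocyte markers. Median log2 ratios ran from -1.73 to -0.99 for stellate cell and fibroblast markers, from -2.69 to -0.93 for cholangiocyte markers and from -0.97 to -0.15 for T and NK cell markers, each highest with the floor at the 60th percentile, where the S100 median was -1.48. Signals under that higher floor were raised to it, which brings their ratios nearer to 0, and genes under it on both arrays drop out. No paired analysis was possible because each group has 1 array. Signals near the floor, as for S100a4, S100b and most neutrophil markers, limit what these arrays can show, and leaving out a replicate was not possible with 1 per group.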
